A study of Mus musculus with 24 samples.

Results

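Dietary methionine restriction was compared between grafts of 1 tumour line grown in immunocompetent and in immunodeficient mice. For each gene the diet difference in Balb/c hosts (0.172% minus 0.86% methionine) was set against the diet difference in NSG hosts, and the first minus the second is called the diet by host difference below. A value above 0 means that restriction went with relatively more of a transcript in Balb/c than in NSG hosts. The comparison took in all 24 libraries of the series, which were counted as 22 tumours, and all 38019 genes with a count in any library. Genes and pathways are described by whether the diet difference ran in opposite directions in the 2 hosts or was found mainly in 1 of them.

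RNA was sequenced from grafts of CT26.WT, a mouse colon carcinoma line that came from a Balb/c mouse. The first group was grown in Balb/c hosts fed the restricted diet with 0.172% methionine (6 tumours) and the second in Balb/c hosts on the high diet with 0.86% methionine (6 libraries, counted as 4 tumours). The third group was grown in NSG hosts on 0.172% methionine (6 tumours) and the fourth in NSG hosts on 0.86% methionine (6 tumours). All mice were male, the labels give every sample as wild-type, and the diets were fed for 3 to 4 weeks. NSG mice carry immune defects of their own that leave them without mature T, B and NK cells, and their strain differs from that of the graft, so immune deficiency, strain and graft matching cannot be told apart here. Cells of the graft and of the host were sequenced together. Whether every library stands for its own animal is not stated in the labels, and p-values describe the scatter of these libraries.

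Methionine is an essential amino acid that starts protein synthesis and, as S-adenosylmethionine, gives the methyl groups for DNA, RNA, histones and small molecules. It also feeds polyamine synthesis and, through homocysteine and cysteine, glutathione. When an amino acid runs short, the kinase GCN2 is activated and the transcription factor ATF4 raises genes for amino acid synthesis and uptake, while mTORC1 signalling, ribosome production and sterol synthesis can be turned down. Immune cells in a tumour draw on the same methionine supply as the cancer cells.

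Each library held 31339425 to 57162217 assigned counts, and counting error matters mainly for genes with few counts. Libraries 19 and 23 correlated at r = 0.9987 and libraries 20 and 24 at r = 0.9981 over 11518 genes, against at most 0.9921 in the other pairs of 276. These 4 libraries belong to the Balb/c group on the high diet. Each of the close pairs was averaged and counted as 1 tumour, called 19-23 and 20-24 below. Summed cytotoxic and NK markers were 368 to 76588 normalised counts in restricted Balb/c tumours and 6147 to 26107 in those on the high diet. In NSG tumours the sums were 115 to 279 on the restricted and 118 to 162 on the high diet, with the NK and T cell genes Ncr1, Tbx21, Xcl1 and Ifng at 0 in every tumour. Tumour 17, from the restricted Balb/c group, held the 368, and the other tumours of that group at least 9905. Among 12 epithelial and colon carcinoma markers the keratin gene Krt8 ranged from 133 to 29746 normalised counts in restricted Balb/c tumours, while the intestinal factor gene Cdx1 was at 0 in every tumour of the 3 other groups. The 2 library kits named in the series text and in the extraction protocol differ, one stranded and the other not stated to be so. Genes with an overlapping or antisense partner are therefore uncertain.

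No gene passed the adjusted threshold for the diet by host difference. By limma 0 of 38019 genes had an adjusted p under 0.05 and the lowest adjusted p was 0.0987, shared by Ttc33 and Slc22a23. At an unadjusted p under 0.05 stood 2447 genes, 6.44% of those tested, of which 3.25% were above 0 and 3.19% below. Among the 13078 genes whose mean value was 7 or more on the deposited log2 scale 5.44% were above 0 and 4.66% below at this p. These shares are the background for the counts of list members below. A fit of the recovered counts by limma's voom split them differently, with 10.4% above 0 and 2.73% below and again 0 genes called. Simulated differences of 1 on the log2 scale were recovered in 76% of genes and differences of 0.5 in 12%, over 38019 genes and with 200 genes changed. Genes with few counts were not among those changed, and 50 each were set at 0.5, 1, 2 and 3. With so many large changes the adjusted threshold is easier to pass than in these data, where Slc22a23 did not pass at 1.55. The recovered shares are thus likely too high for these data, and small differences could mostly not be detected with these numbers of tumours.

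Within single hosts, diet passed the adjusted threshold for 1 gene in Balb/c hosts (0.00263%) and for 2 in NSG hosts (0.00526%), all 3 chosen here after their values were seen. The antibody segment Ighv9-3 fell in Balb/c hosts, with 0 counts in each of the 6 restricted tumours and 0.919 to 2.21 normalised counts on the high diet (limma adjusted p = 0.00359), and it was at 0 in every NSG tumour. The predicted gene Gm34719 fell in NSG hosts, with 8.09 to 14.9 normalised counts on the restricted and 23.6 to 42.0 on the high diet (limma adjusted p = 0.036). In Balb/c hosts it had 5.37 to 18.9 on the restricted and 9.19 to 13.5 on the high diet, and the groups overlapped. Its diet by host difference of 0.82 ± 0.17 (SE) did not pass (limma adjusted p = 0.265). The peroxisomal oxidase gene Acox2 fell in NSG hosts, at 0 on the restricted diet in every tumour and at 0.828 to 2.96 on the high diet (limma adjusted p = 0.036). These are a few reads per library, and Acox2 was also at 0 in every Balb/c tumour on the restricted diet, against 0 to 1.64 on the high diet.

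Opposite directions were frequent among the genes with the lowest p. Of 10866 protein-coding genes whose mean value was 7 or more, 54 (0.497%) had an unadjusted p under 0.001 for the difference, 39 above 0 and 15 below. Of these 54, 31 had diet differences of opposite sign with an unadjusted p under 0.05 in each host, 22 higher in Balb/c and 9 lower. A further 18 reached that p in Balb/c hosts only, 15 of them higher and 3 lower, and 5 in NSG hosts only. Over all genes tested, 7.48% reached that p for diet in Balb/c hosts and 6.72% in NSG hosts. At an unadjusted p under 0.01 stood 330 genes (3.04%), of which 62 were opposite, 164 mainly in Balb/c and 102 mainly in NSG hosts. Since a difference of opposite effects is larger than either effect, a selection by this p favours opposite genes, and the classes are given as a description. The plot of the diet difference in the 2 hosts shows the 12 genes with the lowest p in each direction, which are described next.

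**Figure D1:**
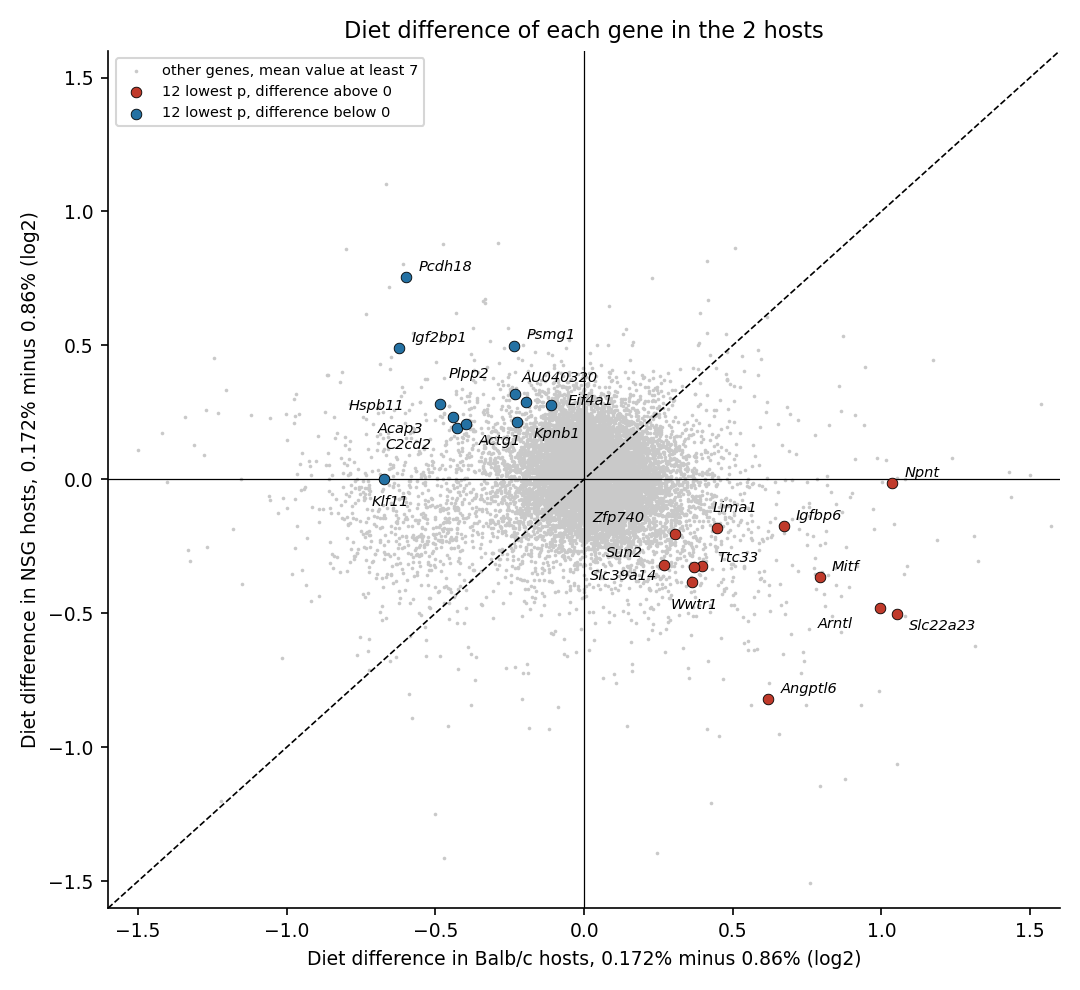
Diet difference of each gene (0.172% minus 0.86% methionine, deposited log2 scale) in Balb/c hosts on the horizontal axis and in NSG hosts on the vertical axis, for genes whose mean value was 7 or more. Red points are the 12 genes with the lowest p for a difference above 0, blue points the 12 with the lowest p below 0, grey points all other genes, and the dashed line marks equal diet differences. The axes end at 1.6 and leave out 3 genes. The red genes lie right of and below the dashed line and the blue genes left of and above it, with Npnt and Klf11 close to 0 in NSG hosts.

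Ttc33, which encodes a tetratricopeptide repeat protein, was the only gene whose diet groups separated completely in opposite directions, 1 of 38019 (0.00263%). The Balb/c tumours had 901, 1088 and 1222 normalised counts (lowest, median and highest) on the restricted diet and 839, 833, 756 and 806 on the high diet. In NSG hosts the values were 720, 803 and 864 on the restricted and 929, 953 and 1139 on the high diet. All restricted tumours thus lay above all high-diet tumours in Balb/c hosts and below them in NSG hosts. Its diet difference was 0.40 in Balb/c and -0.33 in NSG hosts, and the difference between them 0.72 ± 0.12 (SE, limma adjusted p = 0.0987). Without tumour 15 the adjusted p was 0.0206 and without tumour 19-23 it was 0.0385. Ttc33 passed in 7 of 35 other settings, and over these settings its limma adjusted p reached 0.275. Complete separation within 1 host was found for 171 genes (0.45%) with the restricted tumours above and 135 (0.355%) with them below in Balb/c hosts. In NSG hosts the counts were 164 (0.431%) above and 83 (0.218%) below. The same direction of separation in the 2 hosts was found for 2 genes (0.00526%), the polymerase I subunit gene Cd3eap and the mitochondrial chaperone gene Trap1, with the restricted tumours above.

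Slc22a23, an orphan member of the SLC22 family of organic ion transporters, had the larger difference of the pair with the lowest adjusted p. Balb/c tumours had 764, 1531 and 1887 normalised counts on the restricted diet (lowest, median, highest), against 535, 741, 732 and 583 on the high diet. Tumours in NSG hosts had 576, 819 and 1244 on the restricted and 1073, 1162 and 1333 on the high diet. The Balb/c groups did not overlap, and in NSG hosts tumour 5 alone reached into the range of the high diet. The diet difference was 1.05 in Balb/c and -0.50 in NSG hosts, 1.55 ± 0.27 apart (limma adjusted p = 0.0987). Without tumour 13, the lowest of its Balb/c group, the difference was 1.72 (limma adjusted p = 0.00256), and without tumour 5 it was 1.67 (limma adjusted p = 0.0278). Slc22a23 passed in 3 of 35 other settings, and over these settings its limma adjusted p reached 0.262.

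Arntl encodes BMAL1, the transcription factor that drives the circadian clock together with CLOCK. It had 565, 893 and 1580 normalised counts in restricted Balb/c tumours (lowest, median, highest) and 370, 364, 587 and 509 in those on the high diet. In NSG hosts it had 604, 726 and 832 on the restricted and 802, 1005 and 1460 on the high diet. The groups touched in each host, with all restricted values above the high-diet median in Balb/c and all below it in NSG hosts. The difference of 1.48 ± 0.30 did not pass (limma adjusted p = 0.265). Of 19 clock genes 2 were above 0 at the unadjusted threshold and 1 below, and the list median was -0.10. Nfil3, a repressor in the clock output, was the other one above 0, at 0.68 ± 0.33 (limma adjusted p = 0.771). Its high-diet Balb/c tumours ranged from 277 in 20-24 to 1300 in 19-23, wider than the restricted group at 760 to 1020, and its NSG values were 519 to 703 restricted and 566 to 950 high. Dbp, an activator of clock output that BMAL1 targets, stood on the other side at -0.66 ± 0.29 (limma adjusted p = 0.728). It had 723, 946 and 1424 counts in restricted Balb/c tumours and 889, 2720, 1544 and 1318 in those on the high diet, against 1461 to 2342 restricted and 1516 to 1910 high in NSG hosts. Leaving out single tumours moved either count of clock genes by at most 1, and without tumour 17 there were 1 above 0 and 0 below. The labels used here give no time of day for tumour collection.

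**Figure D2:**
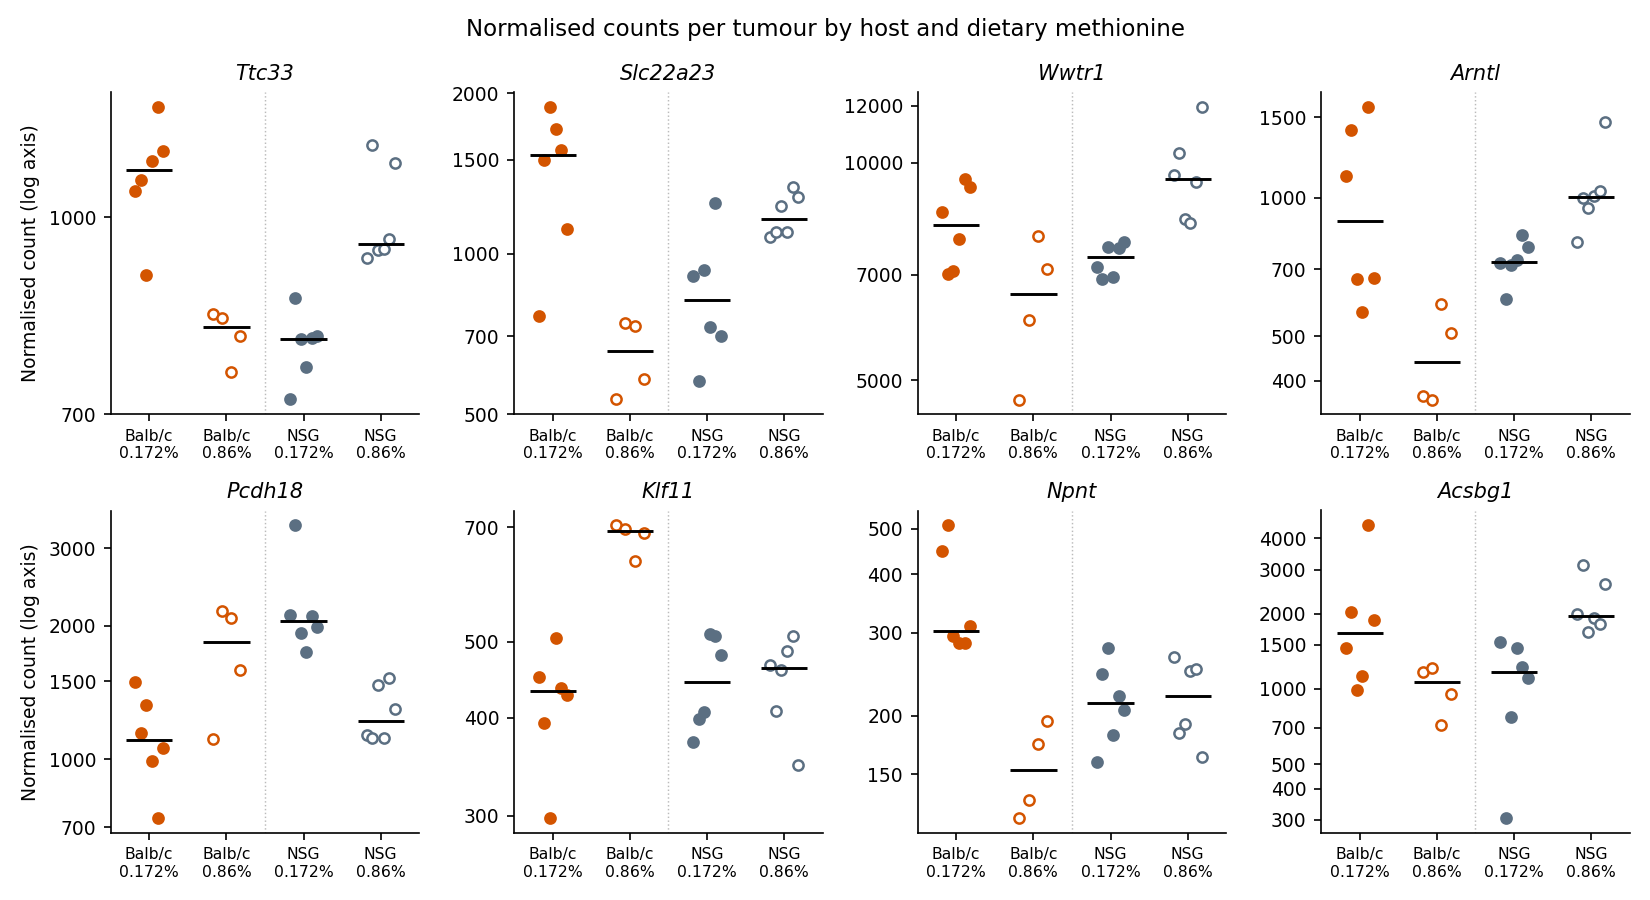
Normalised counts per tumour on log axes for 8 genes, with Balb/c hosts in orange and NSG hosts in grey, filled points for 0.172% and open points for 0.86% methionine, and a bar at each group's median. Ttc33 separates the diets in opposite directions in the 2 hosts, Klf11 and Npnt separate them in Balb/c hosts with NSG groups overlapping, and Acsbg1 separates them in NSG hosts.

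Other genes above 0 with opposite diet differences included membrane, transcription and nuclear envelope genes. Sun2, a part of the complex that ties the nuclear lamina to the cytoskeleton, had 6350, 6930 and 7612 normalised counts in restricted Balb/c tumours and 5462, 4784, 6628 and 6539 in those on the high diet. The NSG tumours had 5368, 5609 and 6342 on the restricted and 6861, 6997 and 8299 on the high diet, with no overlap. The difference was 0.59 ± 0.12 (limma adjusted p = 0.265). Wwtr1 encodes TAZ, a coactivator held back by the Hippo pathway. It had 7011, 8191 and 9489 counts in restricted Balb/c tumours and 4699, 6055, 7929 and 7131 in those on the high diet, which overlapped. In NSG hosts there were 6916, 7400 and 7768 on the restricted and 8255, 9510 and 11970 on the high diet, which did not. Its difference was 0.74 ± 0.17 (limma adjusted p = 0.292).

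Mitf, a transcription factor of melanocytes and of lysosomal genes, separated the diets in Balb/c hosts, with 1022, 1233 and 2348 normalised counts on the restricted and 528, 942, 869 and 820 on the high diet. NSG tumours had 743, 926 and 1076 on the restricted and 989, 1109 and 1653 on the high diet, which overlapped. The difference was 1.16 ± 0.26 (limma adjusted p = 0.3). Angptl6, a secreted angiopoietin-like protein gene, had 422, 561 and 727 counts in restricted and 254, 292, 460 and 448 in high-diet Balb/c tumours. Tumours in NSG hosts had 227, 396 and 669 on the restricted and 572, 704 and 839 on the high diet. Groups overlapped in each host and the difference was 1.44 ± 0.31 (limma adjusted p = 0.292). Slc39a14, a zinc and manganese importer gene, differed by 0.70 ± 0.15, from 0.37 in Balb/c and -0.33 in NSG hosts (limma adjusted p = 0.265). Zfp740, a zinc finger gene, differed by 0.51 ± 0.11 (limma adjusted p = 0.292). Lima1, an actin-binding protein gene, had its diet difference mainly in Balb/c hosts, at 0.45 there and -0.18 in NSG hosts. It differed by 0.63 ± 0.14 (limma adjusted p = 0.265), and its diet groups were apart in Balb/c hosts.

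Below 0, Pcdh18 had the lowest p. It encodes a protocadherin, a cell adhesion protein. In Balb/c hosts it had 735, 1103 and 1493 normalised counts on the restricted diet (lowest, median, highest), against 1111, 2159, 2082 and 1594 on the high diet. In NSG hosts it had 1744, 2049 and 3381 on the restricted and 1116, 1217 and 1526 on the high diet. In Balb/c hosts only tumour 19-23 of the high diet reached into the restricted range, and all restricted NSG tumours lay above the high-diet ones. The diet difference was -0.60 in Balb/c and 0.75 in NSG hosts, -1.35 ± 0.26 apart (limma adjusted p = 0.159). Without tumour 19-23 it was -1.55 and passed (limma adjusted p = 0.0326), as did the T cell receptor segment Trbv17 at -0.35 (limma adjusted p = 0.0326), named after its value was seen. Pcdh18 passed in 1 of 35 other settings, and over these settings its limma adjusted p reached 0.398.

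Acap3, a regulator of ARF GTPases, ran the same way. It had 935, 1069 and 1295 normalised counts in restricted Balb/c tumours and 1507, 1759, 1307 and 1425 in those on the high diet, without overlap. The NSG tumours had 1434, 1696 and 1794 on the restricted and 1226, 1372 and 1610 on the high diet, which overlapped. The difference was -0.68 ± 0.14 (limma adjusted p = 0.265). Igf2bp1 encodes an RNA-binding protein of fetal tissue and tumours that stabilises its targets and reads m6A. It had 121, 169 and 343 counts in restricted and 281, 396, 240 and 281 in high-diet Balb/c tumours. In NSG hosts there were 394, 592 and 661 on the restricted and 290, 445 and 475 on the high diet. The groups overlapped in each host and the difference was -1.11 ± 0.26 (limma adjusted p = 0.334). Further genes below 0 were Hspb11, a part of the intraflagellar transport machinery (-0.77 ± 0.18), the nuclear import receptor gene Kpnb1 (-0.44 ± 0.11) and the lipid phosphatase gene Plpp2 (-0.55 ± 0.14), with limma adjusted p of 0.334, 0.346 and 0.357. AU040320 (-0.48) and C2cd2 (-0.62) were also below 0, with the diet groups of AU040320 apart in Balb/c hosts. C2cd2 had its larger diet difference in Balb/c hosts.

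Psmg1 and Eif4a1 had a diet difference mainly in NSG hosts. Psmg1, a chaperone of proteasome assembly, had 527, 702 and 833 normalised counts in restricted Balb/c tumours and 846, 709, 842 and 831 in those on the high diet, with overlap. NSG tumours had 707, 801 and 1223 on the restricted and 547, 593 and 640 on the high diet, without overlap. The difference was -0.74 ± 0.17 (limma adjusted p = 0.334). Eif4a1, the RNA helicase of the cap-binding complex that starts translation, had 27632, 29229 and 32103 counts in restricted and 36040, 29710, 30171 and 31598 in high-diet Balb/c tumours. NSG tumours had 31326, 33396 and 37205 on the restricted and 26794, 27648 and 28409 on the high diet. Only the NSG groups were apart, by a diet difference of 0.28, and the difference between hosts was -0.39 ± 0.10 (limma adjusted p = 0.357).

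Other genes had a diet difference mainly in Balb/c hosts. Npnt, which encodes the matrix protein nephronectin, had 285, 302 and 509 normalised counts in restricted Balb/c tumours and 121, 132, 174 and 195 in those on the high diet. NSG tumours had 159, 213 and 278 on the restricted and 163, 220 and 266 on the high diet. The Balb/c groups were fully apart while the NSG groups covered nearly the same range, with diet differences of 1.04 in Balb/c and -0.01 in NSG hosts and a difference of 1.05 ± 0.23 (limma adjusted p = 0.292). Igfbp6, a binding protein of insulin-like growth factor 2, had 7850, 9228 and 10344 counts in restricted and 6391, 5792, 5301 and 5515 in high-diet Balb/c tumours. Tumours in NSG hosts had 4943, 7778 and 9040 on the restricted and 7237, 7730 and 9199 on the high diet, again with separation in Balb/c hosts and overlap in NSG hosts. The difference was 0.85 ± 0.19 (limma adjusted p = 0.3).

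Klf11, a transcription factor induced by TGF-beta, ran downward in Balb/c hosts, with 298, 432 and 506 normalised counts on the restricted and 704, 697, 633 and 687 on the high diet. In NSG hosts it had 373, 444 and 511 on the restricted and 348, 464 and 509 on the high diet. The Balb/c groups did not overlap and the NSG groups did, with diet differences of -0.67 in Balb/c and 0.00 in NSG hosts (difference -0.67 ± 0.17, limma adjusted p = 0.357). Actg1, which encodes cytoplasmic gamma-actin, differed by -0.61 ± 0.15 (limma adjusted p = 0.364), from -0.40 in Balb/c and 0.21 in NSG hosts. Ednrb, the endothelin B receptor gene, had 106, 188 and 265 counts in restricted and 858, 392, 424 and 413 in high-diet Balb/c tumours, without overlap. The NSG tumours had 320, 391 and 787 on the restricted and 167, 488 and 716 on the high diet. The difference was -1.37 ± 0.45 (limma adjusted p = 0.582). Themis2 and Clec12a, signalling and receptor genes of myeloid cells, were among the largest differences below 0, at -1.25 ± 0.37 and -1.21 ± 0.40 (limma adjusted p = 0.513 and 0.609).

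Among the 4 largest differences above 0, Sh2d6, Acsbg1 and Lcn2 had a smaller diet difference in Balb/c than in NSG hosts. Sh2d6, an SH2 domain gene, had 55.6, 73.3 and 637 normalised counts in restricted Balb/c tumours and 41.6, 58.4, 46.3 and 58.8 in those on the high diet, the 637 being tumour 17. NSG tumours had 5.54, 74.6 and 177 on the restricted and 187, 228 and 347 on the high diet, without overlap. The difference was 2.27 ± 0.69 (limma adjusted p = 0.531). Acsbg1, an acyl-CoA synthetase gene, had 989, 1675 and 4512 counts in restricted and 1171, 1213, 719 and 953 in high-diet Balb/c tumours, which overlapped. NSG tumours had 305, 1166 and 1539 on the restricted and 1684, 1962 and 3140 on the high diet, which did not. The difference was 1.94 ± 0.54 (limma adjusted p = 0.493). Lcn2, an iron-siderophore binding lipocalin of neutrophils and inflamed epithelia, was opposite in the 2 hosts. It had 298, 378 and 480 counts in restricted Balb/c tumours and 599, 63.0, 149 and 227 in those on the high diet, the 599 in tumour 19-23. In NSG hosts there were 12.4, 45.7 and 107 on the restricted and 77.0, 142 and 212 on the high diet. The difference was 2.0 ± 0.53 (limma adjusted p = 0.46). Anxa8, an annexin gene, differed by 1.78 ± 0.52 (limma adjusted p = 0.513).

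The genes above 0 were unevenly spread over the chromosomes. Of the 12 genes with the lowest p above 0, 5 lie on chromosome 15, namely Ttc33, Sun2, Lima1, Zfp740 and Igfbp6. Of 500 genes on chromosome 15 with a mean value of at least 7, 116 (23.2%) were above 0 at the unadjusted threshold, against 5.44% over all chromosomes. The median diet by host difference of chromosome 15 was 0.18, with 0.16 in Balb/c and -0.04 in NSG hosts. The share was 17.4% without tumour 21 and 29.6% without tumour 19-23, the extremes over the tumours left out. In single tumours the median of chromosome 15, relative to the mean of all tumours, was -0.22 in tumour 21 and -0.11 in tumour 22, both on the high diet in Balb/c hosts. It was 0.05 in tumour 19-23 and -0.01 in tumour 20-24 of the same group, and 0.00 to 0.12 in the 6 restricted Balb/c tumours. In NSG tumours it lay between -0.09 and 0.03 on the restricted and between -0.02 and 0.07 on the high diet.

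Chromosome 14 had 11.3% of its genes above 0 at that threshold, and 8.56% without tumour 12, whose median for the chromosome was 0.18. Chromosome 19 had 10.3% below 0 and chromosome 4 had 9.7%, against 4.66% over all chromosomes. Leaving out single tumours gave 6.62% (without 17) to 16.4% (without 20-24) for chromosome 19 and 5.79% (without 19-23) to 13.1% (without 21) for chromosome 4. Tumour 17 stood at 0.38 for chromosome 6, on which Mitf, Sh2d6, Asns and Mat2a lie. It held the highest value of each of these genes among restricted Balb/c tumours. When each gene's value was taken relative to the median of its chromosome in that tumour, Ttc33 differed by 0.55 ± 0.12 (limma adjusted p = 0.275) and Sun2 by 0.42 ± 0.14 (limma adjusted p = 0.551). On the same basis Slc22a23 on chromosome 13 differed by 1.51 ± 0.28 and Pcdh18 on chromosome 3 by -1.34 ± 0.24 (limma adjusted p = 0.168 for each). For chromosome 6, Mitf differed by 1.07 ± 0.21 and Sh2d6 by 2.18 ± 0.63 on this basis (limma adjusted p = 0.275 and 0.421). Asns differed by 0.11 ± 0.19 and Mat2a by 0.22 ± 0.19 (limma adjusted p = 0.918 and 0.852). For chromosome 15, Lima1 differed by 0.46 ± 0.13, Zfp740 by 0.34 ± 0.11 and Igfbp6 by 0.67 ± 0.17 on this basis (limma adjusted p = 0.419, 0.549 and 0.369). How far chromosome-wide shifts make up the differences of single genes was otherwise not tested.

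**Figure D3:**
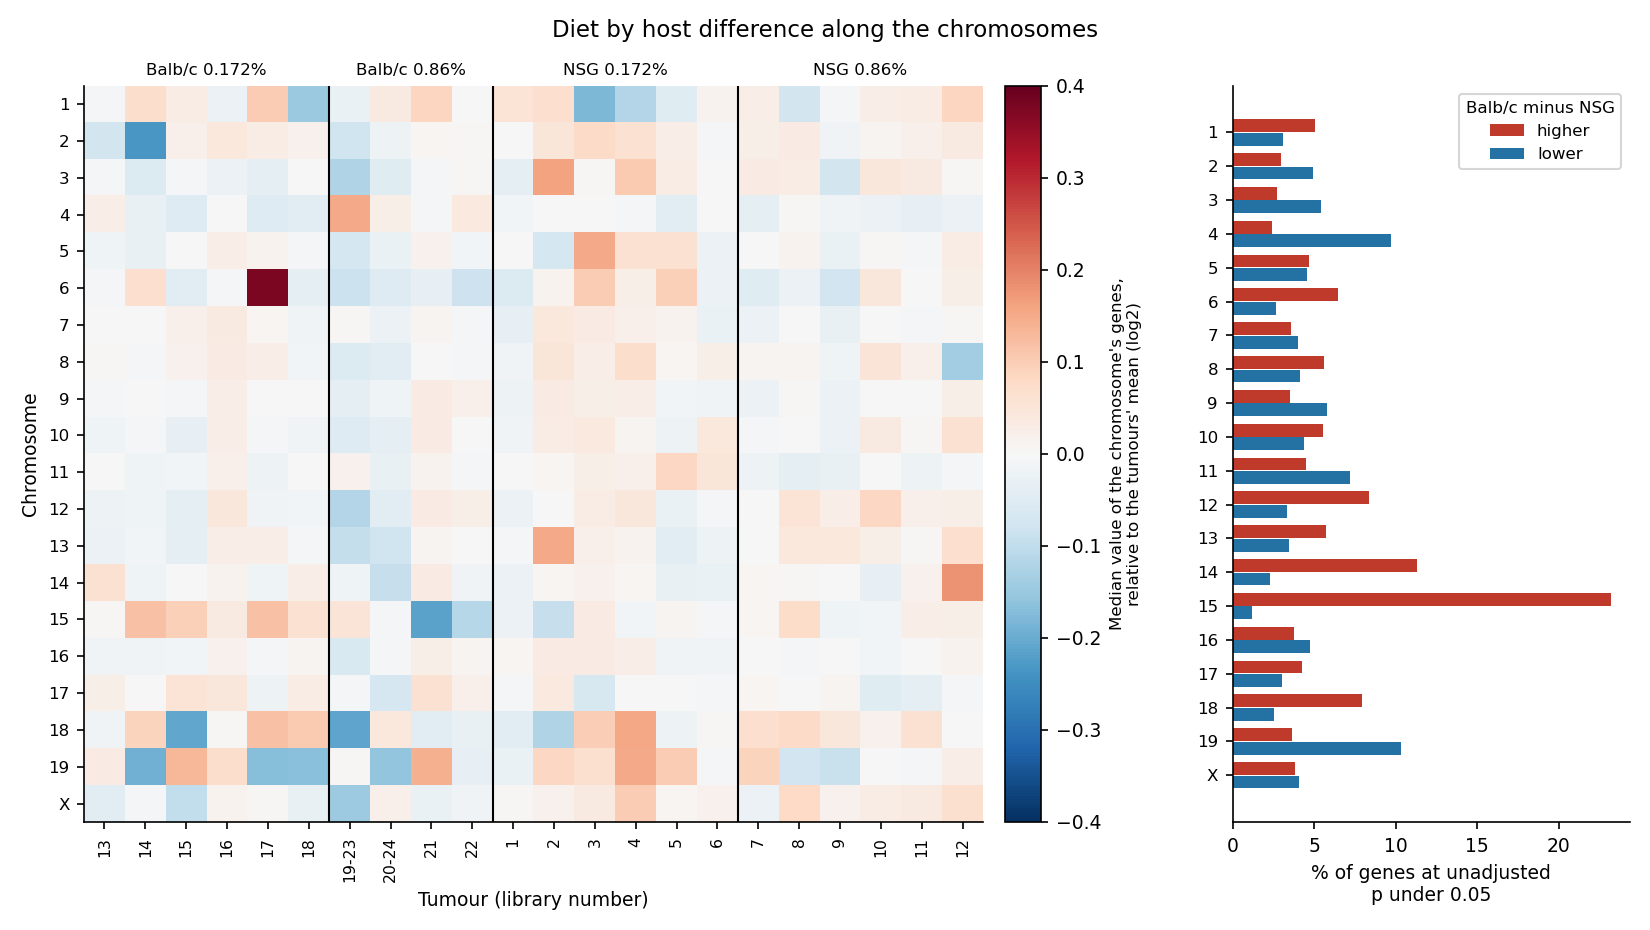
Left, the median value of the genes of each chromosome in each tumour relative to the mean of all tumours (log2, red above and blue below 0), with tumours in columns grouped by host and diet. Right, the percentage of genes of each chromosome at an unadjusted p under 0.05 for the diet by host difference, above 0 in red and below 0 in blue. Chromosome 15 has 23.2% above 0 and 1.2% below, and its median is lowest in tumours 21 and 22.

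ATF4 targets, the genes induced when amino acids run short, leaned upward in Balb/c and downward in NSG hosts. Of 34 targets 9 were above 0 at the unadjusted threshold and 0 below, 26.5% against a background of 5.44%, and 0 passed the adjusted one. The list median was 0.24, with 0.18 in Balb/c and -0.11 in NSG hosts, against 0.00 over all genes, with 26 of 34 estimates above 0. Signs were opposite in the 2 hosts for 17 of 34 members, a share close to that of all genes whose mean value was 7 or more (6822 of 13078). Trib3, a pseudokinase that restrains the response, had 1354, 1786 and 2444 normalised counts in restricted Balb/c tumours and 1557, 1441, 1283 and 1299 in those on the high diet. NSG tumours had 832, 1576 and 3045 on the restricted and 1986, 2526 and 3314 on the high diet. Groups overlapped in each host, with 1 of 6 restricted NSG tumours above the high-diet median. Its difference was 1.06 ± 0.35 (limma adjusted p = 0.607), most of it from the -0.71 in NSG hosts.

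Slc38a2, the SNAT2 transporter of small neutral amino acids including methionine, had the lowest p of the ATF4 list. It had 15855, 19563 and 25412 normalised counts in restricted Balb/c tumours and 12827, 19136, 15249 and 17499 in those on the high diet. Tumours in NSG hosts had 15941, 18529 and 20604 on the restricted and 18153, 21923 and 25184 on the high diet. The groups overlapped, with diet differences of 0.29 in Balb/c and -0.23 in NSG hosts and a difference of 0.52 ± 0.16 (limma adjusted p = 0.513). The gene lies on chromosome 15, and relative to that chromosome the difference was 0.35 ± 0.15 (limma adjusted p = 0.683). Ddit3, which encodes the stress factor CHOP, had 1435, 1964 and 2452 counts in restricted and 2006, 1156, 1823 and 1691 in high-diet Balb/c tumours. In NSG hosts it had 1228, 2358 and 2994 on the restricted and 2349, 3084 and 3563 on the high diet, and the difference was 0.74 ± 0.27 (limma adjusted p = 0.643). Asns, asparagine synthetase, did not share the opposite directions. It had 10751, 13306 and 19576 counts in restricted and 11689, 11554, 10464 and 11013 in high-diet Balb/c tumours, against 10575, 14155 and 19489 restricted and 10627, 13518 and 15878 high in NSG hosts. Its difference was 0.20 ± 0.22 (limma adjusted p = 0.821), and 0 of 20 aminoacyl-tRNA synthetase genes reached the unadjusted threshold.

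ATF4 binds with C/EBP partners to an element with the letters TGATGNAA, where N is any base. Promoters of 300 bases, 250 before and 50 after the start of the gene, were taken from RefSeq on GRCm38.p6 for 30 of the 34 targets and searched on either strand. The element was found in 11 of 30, against 4.51% of the promoters of 27025 genes. Among the 9 targets at the unadjusted threshold 4 promoters held it, those of Trib3, Nupr1, Got1 and Vldlr. Their sequences are shown because these members reached that threshold for the difference and hold the element. Capitals mark the match, which reads as its reverse complement in all 4. The element was also in the promoters of Asns, Atf3, Chac1, Fgf21, Pck2, Pycr1 and Slc7a11, which did not reach the threshold. A link between the element and the diet by host difference was not tested. The Trib3 window is chr2:152344011-152344310 (minus strand) with the match at position 15 from the start of the gene, and the Nupr1 window is chr7:126625421-126625720 (minus strand) with the match at -110. The Got1 window is chr19:43524556-43524855 (minus strand) with the match at -102, and the Vldlr window is chr19:27216770-27217069 (plus strand) with the match at -200. A match describes the letters only, and target lists of this kind are drawn up partly from genes that hold the element.
Trib3: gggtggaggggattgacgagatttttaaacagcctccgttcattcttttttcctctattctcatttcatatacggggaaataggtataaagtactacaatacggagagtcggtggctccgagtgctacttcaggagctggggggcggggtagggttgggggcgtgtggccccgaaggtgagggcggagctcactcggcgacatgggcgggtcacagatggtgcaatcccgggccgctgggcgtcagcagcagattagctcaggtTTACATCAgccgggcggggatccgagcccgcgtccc
Nupr1: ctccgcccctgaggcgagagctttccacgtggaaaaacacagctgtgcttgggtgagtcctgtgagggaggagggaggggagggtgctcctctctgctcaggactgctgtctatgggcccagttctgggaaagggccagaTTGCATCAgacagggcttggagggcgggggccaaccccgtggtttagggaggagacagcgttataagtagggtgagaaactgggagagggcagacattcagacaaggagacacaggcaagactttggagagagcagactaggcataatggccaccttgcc
Got1: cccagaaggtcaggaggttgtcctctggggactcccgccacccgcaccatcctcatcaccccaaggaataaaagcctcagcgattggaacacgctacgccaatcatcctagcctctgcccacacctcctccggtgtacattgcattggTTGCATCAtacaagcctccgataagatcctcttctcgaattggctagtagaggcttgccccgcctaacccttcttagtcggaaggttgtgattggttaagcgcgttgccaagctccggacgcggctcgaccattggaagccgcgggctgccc
Vldlr: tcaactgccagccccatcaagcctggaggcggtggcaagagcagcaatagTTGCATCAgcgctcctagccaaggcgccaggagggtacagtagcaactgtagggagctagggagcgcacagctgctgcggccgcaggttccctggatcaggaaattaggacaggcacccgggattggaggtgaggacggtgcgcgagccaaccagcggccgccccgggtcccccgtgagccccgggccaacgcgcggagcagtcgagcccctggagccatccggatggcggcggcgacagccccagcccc

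The 3 of these genes not yet described are named for their promoters. Nupr1, a small stress-induced chromatin protein gene, had a diet difference of 0.62 in Balb/c and -0.40 in NSG hosts, 1.02 ± 0.40 apart (limma adjusted p = 0.687). Got1, the cytosolic aspartate transaminase gene, had 0.40 and -0.12 in these hosts, 0.52 ± 0.21 apart (limma adjusted p = 0.687). Vldlr, a lipoprotein receptor gene, had 0.30 in Balb/c and -0.24 in NSG hosts, 0.54 ± 0.25 apart (limma adjusted p = 0.756). The related unfolded protein response had 4 of 17 genes above 0 (23.5%) and 0 below, with a list median of 0.06. Over genes whose mean value was 7 or more 5.44% were above 0. Dnajb9, a chaperone partner of the endoplasmic reticulum, had 955, 1518 and 1688 normalised counts in restricted Balb/c tumours and 936, 892, 1252 and 1181 in those on the high diet. The NSG tumours had 1031, 1154 and 1420 on the restricted and 1194, 1477 and 1784 on the high diet, with overlap in each host. The difference was 0.70 ± 0.20 (limma adjusted p = 0.483). Herpud1 and Sel1l, which serve the degradation of misfolded proteins, differed by 0.52 ± 0.15 and 0.38 ± 0.13 (limma adjusted p = 0.513 and 0.609).

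Cholesterol synthesis genes showed the same lean. Of 25 genes 9 (36.0%) were above 0 and 0 below, 0 passed the adjusted threshold, and 15 had opposite signs in the 2 hosts. Among genes whose mean value was 7 or more 5.44% were above 0 at the unadjusted threshold. Opposite signs held for 6822 of these 13078, so the 15 of 25 are not a trait of this list alone. The list median was 0.25, with 0.14 in Balb/c and -0.09 in NSG hosts. Srebf2 encodes SREBP2, the transcription factor that is released when cell sterols run low. It had 6922, 7347 and 7624 normalised counts in restricted Balb/c tumours and 6191, 5923, 5573 and 6122 in those on the high diet, without overlap. In NSG hosts there were 5443, 6209 and 6677 on the restricted and 6122, 6606 and 7262 on the high diet, which overlapped. The difference was 0.42 ± 0.10 (limma adjusted p = 0.334), and 0.24 ± 0.10 relative to its chromosome, which is chromosome 15 (limma adjusted p = 0.652).

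Msmo1, the sterol methyl oxidase, had 3887, 4206 and 4685 normalised counts in restricted Balb/c tumours and 2816, 3039, 2749 and 3777 in those on the high diet, also apart. NSG tumours had 3172, 3781 and 4342 on the restricted and 3194, 3928 and 5020 on the high diet. The difference was 0.56 ± 0.16 (limma adjusted p = 0.496). Hsd17b7, an enzyme of the demethylation of sterols, had 274, 364 and 560 counts in restricted and 225, 344, 343 and 312 in high-diet Balb/c tumours. NSG tumours had 266, 297 and 408 on the restricted and 368, 421 and 515 on the high diet. The groups overlapped in each host, and the difference of 0.73 ± 0.20 (limma adjusted p = 0.45) was made up of 0.29 in Balb/c and -0.44 in NSG hosts. The sterol regulatory element TCACNCCAC was found on either strand in 1 of 17 promoters of the list, that of Hmgcs1, against 1.44% of all promoters. Taken relative to chromosome medians 8 of the 25 genes were above 0 at the unadjusted threshold.

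Fatty acid genes had estimates in both directions. Of 18 fatty acid synthesis genes 4 were above 0 and 1 below at the unadjusted threshold, and leaving out single tumours gave 1 to 5 above 0. The count above 0 was 1 without tumour 13, 3, 4, 5 or 8 and 2 without tumour 19-23, 7, 9 or 12. Scd1, the desaturase that makes oleate, had 14414, 15902 and 20002 normalised counts in restricted Balb/c tumours and 6945, 9377, 16316 and 14564 in those on the high diet. Tumours in NSG hosts had 12319, 15920 and 18224 on the restricted and 16324, 17815 and 21990 on the high diet. Tumours 19-23 and 20-24 had the lowest values, groups overlapped in each host, and the difference was 0.79 ± 0.22 (limma adjusted p = 0.478). Of 22 genes of fatty acid uptake and oxidation 0 were above 0 and 4 below (18.2%), with a list median of -0.17. Over genes whose mean value was 7 or more 4.66% were below 0. Cpt1a, which carries fatty acids into mitochondria, had 2285, 2999 and 3541 counts in restricted and 4472, 4487, 3949 and 4543 in high-diet Balb/c tumours, without overlap. In NSG hosts it had 2583, 2813 and 3048 on the restricted and 2525, 3019 and 3526 on the high diet. The diet difference was -0.60 in Balb/c and -0.08 in NSG hosts, -0.52 ± 0.16 apart (limma adjusted p = 0.513). Cd36, a fatty acid uptake receptor also found on macrophages and endothelium, had 189, 396 and 609 counts in restricted and 1207, 739, 809 and 1088 in high-diet Balb/c tumours. The NSG tumours had 293, 385 and 584 on the restricted and 229, 596 and 698 on the high diet, and the difference was -1.02 ± 0.40 (limma adjusted p = 0.687). Without tumour 19-23, 2 of the 22 genes were below 0.

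**Figure D4:**
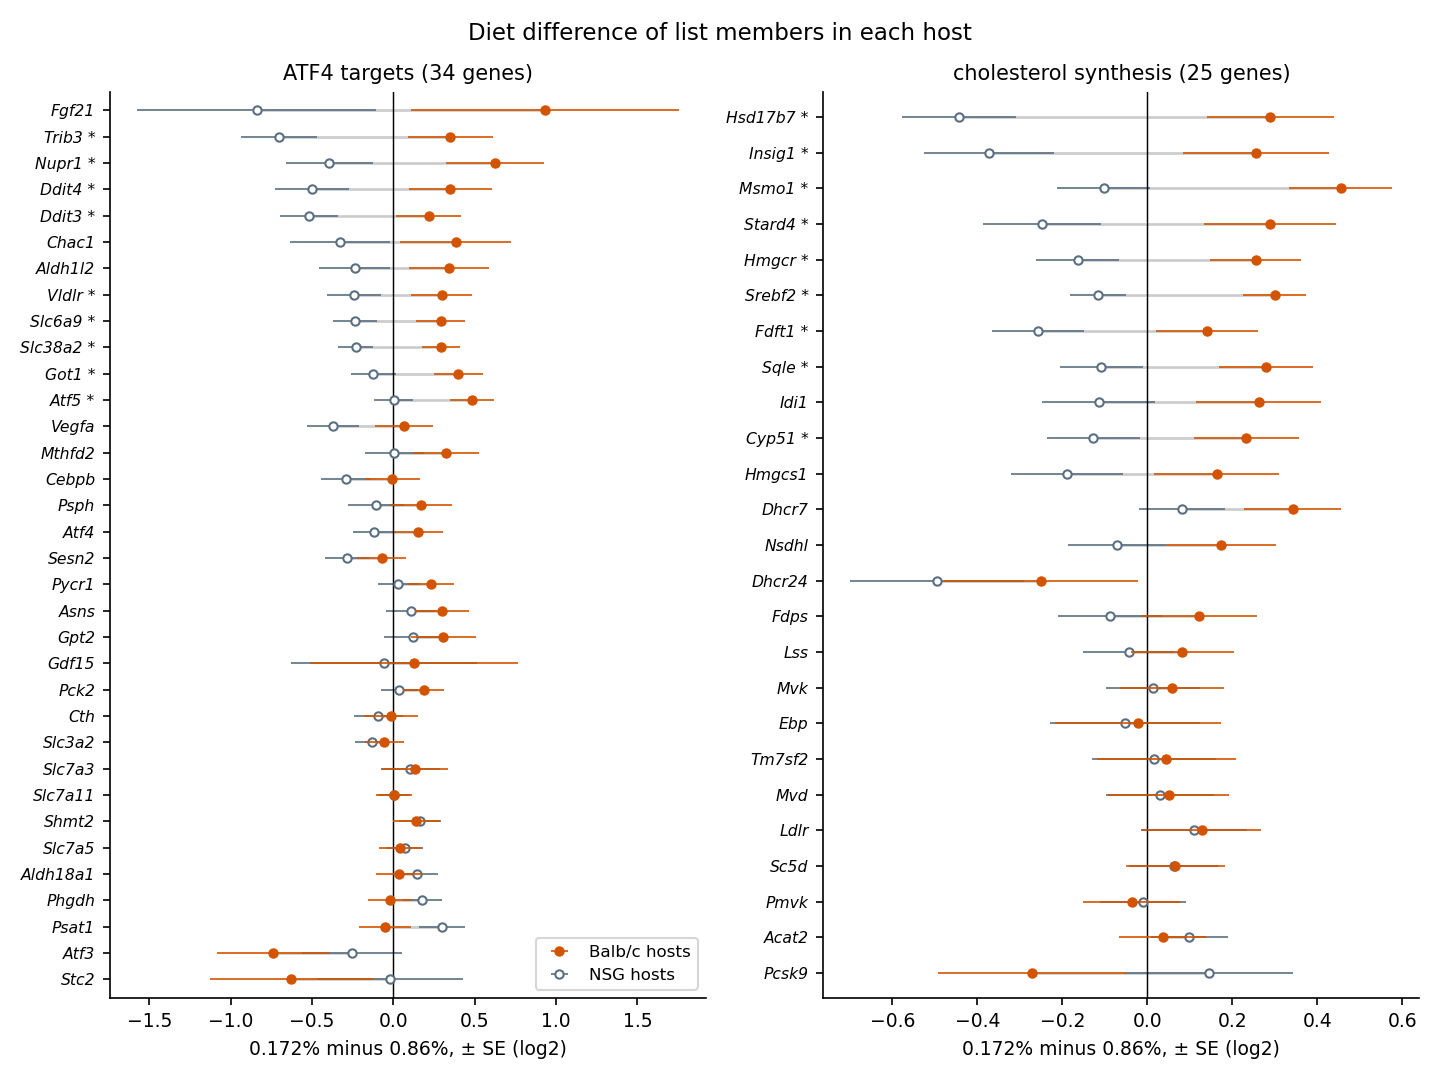
Diet difference (0.172% minus 0.86% methionine, deposited log2 scale, bars for SE) of the 34 ATF4 targets on the left and the 25 cholesterol synthesis genes on the right, with Balb/c hosts as filled orange and NSG hosts as open grey points. Asterisks mark genes at an unadjusted p under 0.05 for the difference between hosts, 9 in each list, all with the Balb/c point to the right of the NSG point.

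Among genes that handle methionine itself, more stood below 0 than above it at the unadjusted threshold, in small counts. Of 21 methionine cycle genes 0 were above 0 and 2 below (9.52%), with a list median of -0.02. Over genes whose mean value was 7 or more 4.66% were below 0. Mat2a, which makes S-adenosylmethionine in most tissues, had 7830, 9133 and 15058 normalised counts in restricted Balb/c tumours and 6966, 12400, 7223 and 7273 in those on the high diet. In NSG hosts there were 8210, 9572 and 11114 on the restricted and 8712, 10023 and 12071 on the high diet. The groups overlapped in each host and the difference was 0.31 ± 0.22 (limma adjusted p = 0.821). Gamt, which uses S-adenosylmethionine to make creatine, was opposite in the 2 hosts. It had 169, 253 and 298 counts in restricted Balb/c tumours and 342, 350, 313 and 245 in those on the high diet, against 251, 313 and 406 restricted and 207, 236 and 290 high in NSG hosts. The difference was -0.73 ± 0.20 (limma adjusted p = 0.472).

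In methionine salvage and polyamine synthesis 1 of 18 genes was above 0 (5.56%) and 3 below (16.7%). Over genes whose mean value was 7 or more the shares were 5.44% above and 4.66% below. Srm, spermidine synthase, had 6978, 7745 and 8474 normalised counts in restricted Balb/c tumours and 10570, 7520, 7188 and 6893 in those on the high diet, the 10570 in tumour 19-23. NSG tumours had 7394, 8605 and 9761 on the restricted and 5754, 6278 and 7558 on the high diet, and the groups overlapped in each host. The diet difference was -0.05 in Balb/c and 0.39 in NSG hosts, -0.44 ± 0.15 apart (limma adjusted p = 0.607). Azin1, which protects ornithine decarboxylase from breakdown, stood at 0.59 ± 0.24 (limma adjusted p = 0.688) and lies on chromosome 15. Relative to that chromosome Azin1 differed by 0.41 ± 0.23 and did not reach the unadjusted threshold (limma unadjusted p = 0.0886, adjusted p = 0.772).

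Genes downstream of cysteine had a few members above 0. Of 18 transsulfuration and glutathione genes 3 were above 0 (16.7%) and 0 below. Of 19 NRF2 targets 3 were above 0 (15.8%) and 0 below, with Gclc in both lists. Over genes whose mean value was 7 or more 5.44% were above 0. The NRF2 list as a whole did not lean, with a median of 0.00 and 10 estimates above 0 and 9 below. Its lowest member was Hmox1 at -1.28. Without tumour 20-24 there were 2 NRF2 targets below 0 at the unadjusted threshold, and 1 without tumour 22 or 11. Gclc, the rate-limiting subunit of glutathione synthesis, had 1540, 1823 and 1958 normalised counts in restricted Balb/c tumours and 1419, 1618, 2119 and 1867 in those on the high diet, with overlap. NSG tumours had 1707, 1869 and 2072 on the restricted and 2202, 2454 and 2837 on the high diet, without overlap. The difference was 0.44 ± 0.14 (limma adjusted p = 0.531). Nqo1, a quinone reductase induced by NRF2, had 13.7, 106 and 192 counts in restricted and 151, 77.0, 34.2 and 54.2 in high-diet Balb/c tumours. NSG tumours had 71.0, 111 and 204 on the restricted and 143, 344 and 1232 on the high diet. The groups overlapped and the difference was 1.64 ± 0.67 (limma adjusted p = 0.695). Ggt1, which breaks down glutathione outside cells, differed by 0.94 ± 0.27 (limma adjusted p = 0.493), from 0.15 in Balb/c and -0.79 in NSG hosts. Csad, a decarboxylase on the way from cysteine to taurine that lies on chromosome 15, had its larger estimate in Balb/c hosts, with 0.41 there and -0.28 in NSG hosts, 0.69 ± 0.25 apart (limma adjusted p = 0.637). Relative to that chromosome Csad differed by 0.515 ± 0.223 (limma adjusted p = 0.681). Nfe2l2, which encodes the factor NRF2 itself, had 0.26 in Balb/c and -0.22 in NSG hosts, 0.47 ± 0.19 apart (limma adjusted p = 0.687). Among 18 amino acid transporters 3 were above 0 and 1 below, and 1 above and 0 below without tumour 19-23. In the methionine, cysteine and NRF2 lists single tumours left out moved a count by up to 2 genes, which is large beside counts of 0 to 3. The methionine cycle list had 2 genes above 0 without tumour 13 or 20-24, against 0 with all tumours.

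Growth genes had list medians below 0, with the larger diet difference in Balb/c hosts for mitosis and in NSG hosts for ribosome production. Of 20 ribosome biogenesis and MYC target genes 0 were above 0 and 5 below (25.0%, against 4.66% over all genes of that level), with a list median of -0.18. In Balb/c hosts 0 of the 20 had a diet difference above 0 at the unadjusted threshold (5.29% of all genes of that level did), and in NSG hosts 11 (6.22%). Npm1, the nucleolar chaperone nucleophosmin, had 41223, 48110 and 53734 normalised counts in restricted Balb/c tumours and 52924, 44590, 51787 and 51947 in those on the high diet. NSG tumours had 48132, 55473 and 62240 on the restricted and 41075, 44797 and 50298 on the high diet. The groups overlapped and the difference was -0.35 ± 0.12 (limma adjusted p = 0.57). Leaving out single tumours gave 1 to 7 of the 20 genes below 0. The count was 1 without tumour 18 or 9, 2 without tumour 14, 21, 4, 5, 8 or 12, and 3 without tumour 13, 19-23, 3 or 11, and the median stayed between -0.21 and -0.15. The nuclear respiratory chain list had 6 of 34 genes below 0, with 3 below without tumour 3 and 1 above and 1 below without tumour 19-23. Cytosolic ribosomal proteins had 3 of 33 below 0. Without tumour 19-23 there were 1 above and 0 below with a median of 0.01, and without tumour 20-24 there were 10 below with a median of -0.25. For the 13 mitochondrially encoded genes the diet difference was above 0 in each host, with medians of 0.38 in Balb/c and 0.39 in NSG hosts, and 0 genes reached the unadjusted threshold for the difference.

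At the unadjusted threshold 0 of 24 G2 and mitosis genes were above 0. Below 0 stood 6 (25.0%), against 4.66% of genes whose mean value was 7 or more. There were 3 below without tumour 17, 3, 4, 9 or 12 and 10 without tumour 16. The list median was -0.20, with -0.17 in Balb/c and 0.04 in NSG hosts, and 22 of the 24 estimates were below 0. Plk1, a kinase of mitotic entry, had 1799, 2129 and 2521 normalised counts in restricted Balb/c tumours and 2573, 2682, 2344 and 2395 in those on the high diet. NSG tumours had 2365, 2605 and 2809 on the restricted and 1912, 2305 and 2628 on the high diet. The groups overlapped in each host and the difference was -0.39 ± 0.14 (limma adjusted p = 0.609). Cdc20 and Bub1b, an activator and a checkpoint kinase of the same stage, differed by -0.37 ± 0.15 and -0.32 ± 0.14 (limma adjusted p = 0.687 and 0.692). Of 29 DNA replication genes 0 were above 0 and 1 below (3.45%), a share under that background of 4.66%.

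Interferon, MHC class II and dendritic cell lists had the lowest list medians of the 48, and single tumours moved these medians in both directions. The 14 genes of the MHC class I and immunoproteasome list had a median of -0.01, with 7 above and 7 below 0 and 0 at the unadjusted threshold. In bulk RNA, fewer cells of a type and less RNA per cell cannot be told apart. MHC class II genes had a list median of -0.99, with -0.92 in Balb/c and 0.21 in NSG hosts. All 10 genes were below 0 and 2 of them at the unadjusted threshold. Summed over its genes, the list had 1961 to 10024 normalised counts in restricted Balb/c tumours, with a median of 5784. On the high diet the sums were 27339, 6308, 4687 and 15073. In NSG hosts they were 2270 to 5375 on the restricted and 1735 to 6903 on the high diet. The lowest restricted Balb/c value belonged to tumour 17 and the highest value of all to tumour 19-23. Without tumour 19-23 the list median was -0.54 and without tumour 17 it was -0.79, with 1 gene below 0 at the unadjusted threshold in each case. Without tumour 21 the median was -1.33 with 7 genes below 0, without tumour 9 there were 5 and without tumour 13 or 20-24 there were 4. No other tumour left out gave more than 3, and most gave 1. In the voom fit the median was -1.44.

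Ciita, the master regulator of MHC class II genes, had 14.7, 50.7 and 60.6 normalised counts in restricted Balb/c tumours and 189, 62.8, 46.3 and 171 in those on the high diet. Tumours in NSG hosts had 19.2, 34.6 and 53.1 on the restricted and 4.63, 19 and 69.7 on the high diet. The groups overlapped in each host and the difference was -1.25 ± 0.44 (limma adjusted p = 0.637). H2-Eb1, an MHC class II beta chain gene, had 182, 621 and 1057 counts in restricted and 3451, 713, 445 and 2033 in high-diet Balb/c tumours, against 283, 558 and 740 restricted and 139, 361 and 982 high in NSG hosts. Its difference was -1.54 ± 0.73 (limma adjusted p = 0.774).

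Dendritic cell markers had 5 of 14 genes (35.7%) below 0 at the unadjusted threshold and 0 above, with a list median of -0.51. Over all genes tested 3.19% were below 0 at this threshold, and 5 of the 14 markers had a mean value of 7 or more. Without tumour 21 there were 9 below with a median of -0.70, no other tumour moved the count by over 1.5 times, and in the voom fit the median was -1.08 with 6 below. Clec9a, a receptor of cross-presenting dendritic cells, had 6.18, 12.7 and 20.4 normalised counts in restricted Balb/c tumours and 44.3, 38.9, 13.2 and 23.9 in those on the high diet. In NSG hosts it had 9.23, 19.4 and 28.2 on the restricted and 10.8, 14.3 and 30.7 on the high diet. The groups overlapped and the difference was -0.66 ± 0.24 (limma adjusted p = 0.643). Xcr1, the chemokine receptor of the same cells, differed by -0.70 ± 0.27 (limma adjusted p = 0.681). Summed dendritic markers were 7659 to 11000 in restricted and 8507 to 13759 in high-diet Balb/c tumours, against 8800 to 10754 restricted and 6830 to 8804 high in NSG hosts. The sums overlapped in Balb/c hosts, and in NSG hosts all but 1 restricted sum lay above all high-diet sums.

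Macrophage and monocyte markers had 3 of 17 genes below 0 (17.6%) and 0 above, with a list median of -0.30. Over genes whose mean value was 7 or more 4.66% were below 0. With single tumours left out 2 to 5 markers were below and the median lay between -0.45 and -0.16. Without tumour 18 there were 5 markers below with a median of -0.45, and without tumour 19-23 there were 2 with a median of -0.29. Ccr2, the receptor that brings monocytes out of the marrow, had 356, 786 and 961 normalised counts in restricted Balb/c tumours and 2664, 2556, 734 and 1349 in those on the high diet. The NSG tumours had 393, 443 and 863 on the restricted and 197, 368 and 927 on the high diet. The groups overlapped and the difference was -1.48 ± 0.53 (limma adjusted p = 0.648). Summed macrophage markers were 54978 to 139899 in restricted and 111954 to 151577 in high-diet Balb/c tumours, against 41025 to 90454 restricted and 49694 to 95266 high in NSG hosts. Endothelial markers were below 0 in all 15 estimates, with 3 genes at the unadjusted threshold and a median of -0.34. Without tumour 19-23 the count was 0 and the median -0.11. The count was also 0 without tumour 13, 16, 17, 5, 6, 8 or 10, and 1 without tumour 1 or 12. Kdr, the main VEGF receptor of endothelium, had 303, 431 and 730 counts in restricted and 1308, 954, 561 and 603 in high-diet Balb/c tumours, against 254, 345 and 469 restricted and 280, 414 and 456 high in NSG hosts. Its difference was -0.66 ± 0.30 (limma adjusted p = 0.754), and the summed markers of tumour 19-23 were 24963 against 11660 to 12439 in the rest of its group and 8490 to 13424 in restricted Balb/c tumours. The part of these markers in the differences of single genes was not tested.

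Type I interferon response genes were below 0 in all 22 estimates, with a median of -0.59. The unadjusted threshold was reached by 1 gene (4.55%), against 4.66% below 0 over genes whose mean value was 7 or more. The list median was -0.27 in Balb/c and 0.27 in NSG hosts. Without tumour 17 the difference was -0.30 with 0.01 in Balb/c hosts, and without tumour 19-23 it was -0.37. Without tumour 2 it was -0.81, and the count below 0 was 5 without tumour 15, 2 without tumour 18 or 2, and 0 without tumour 14, 19-23, 1, 5, 6 or 8. Rsad2, which encodes the antiviral enzyme viperin, had 188, 752 and 1299 normalised counts in restricted Balb/c tumours and 2111, 1067, 995 and 908 in those on the high diet. In NSG hosts there were 566, 1093 and 1371 on the restricted and 580, 848 and 1017 on the high diet. The groups overlapped and the difference was -1.12 ± 0.50 (limma adjusted p = 0.745). The interferon gamma list had a median of -0.60 with 1 of 21 genes below 0, and -0.27 without tumour 17. Without tumour 20-24 the median was -0.82 with 3 below, and without tumour 15 there were 2 below.

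On the deposited scale the T cell, cytotoxic and regulatory T cell lists had medians near 0. T cell markers had a median of -0.05 over 20 genes, cytotoxic and NK genes -0.05 over 20 and regulatory T cell genes 0.07 over 8, with 0 genes at the unadjusted threshold in each. These values depended on tumour 17, which held the fewest cytotoxic transcripts of its group. Without it the cytotoxic and NK median was 0.34 with 4 genes above 0 at the unadjusted threshold, the T cell median 0.15 with 1 gene, and the regulatory T cell median 0.09 with 2 genes. Without tumour 19-23 the regulatory T cell list also had 2 genes above 0, and 1 without tumour 7. The cytotoxic list had 2 genes below 0 without tumour 13, 21 or 22 and 1 without tumour 15, 2 or 4. In the voom fit the cytotoxic median was -0.76 with 2 genes below 0, the regulatory T cell median 0.55 and the T cell median -0.07. B and plasma cell genes had a median of -0.22 over 14 genes with 1 below 0, and a voom median of -0.62. Summed T cell markers were 890 to 2259 normalised counts in restricted and 744 to 1543 in high-diet Balb/c tumours, against 120 to 489 restricted and 207 to 340 high in NSG hosts. In NSG tumours these lists rest on few counts, so a diet difference there was mostly not detectable.

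**Figure D5:**
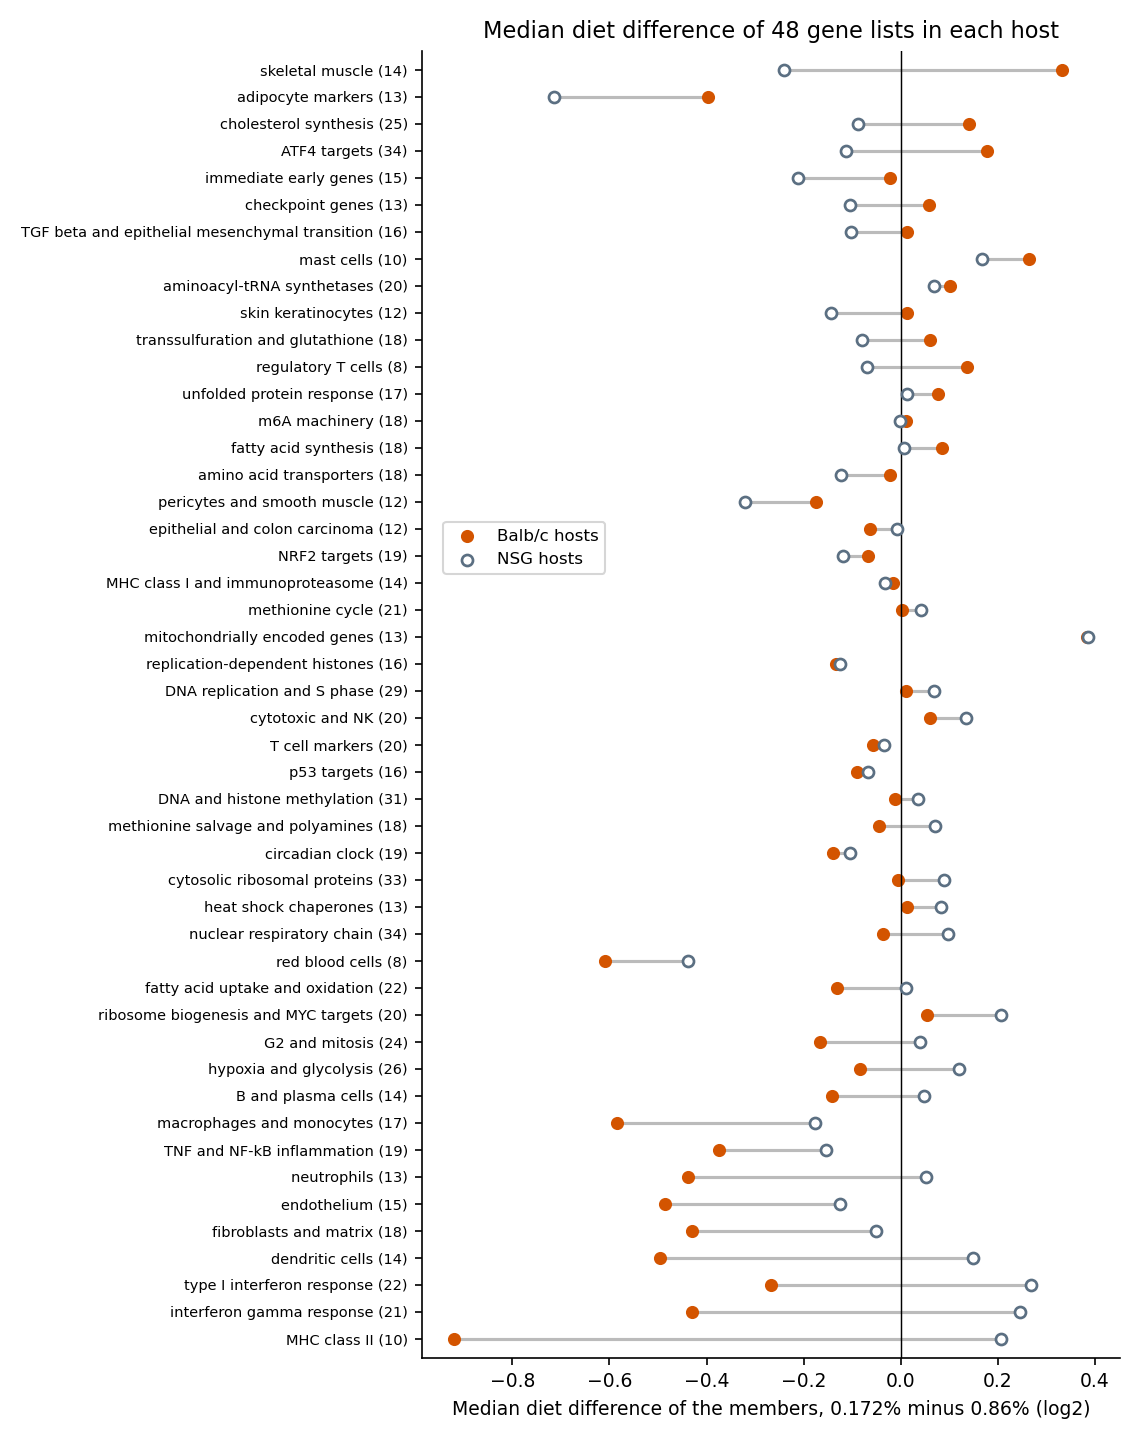
Median diet difference of the members of 48 gene lists (0.172% minus 0.86% methionine, deposited log2 scale), with Balb/c hosts as filled orange and NSG hosts as open grey points, the number of genes tested in brackets and lists ordered by the median diet by host difference. Interferon, MHC class II and dendritic cell lists lie toward the end where the Balb/c point is left of the NSG point, and ATF4 and cholesterol lists toward the other end.

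The other lists had between 0 and 3 members at the unadjusted threshold in either direction. Of 18 m6A genes 0 were above 0 and 2 below, Igf2bp1 and the methyltransferase gene Mettl16 (-0.39 ± 0.13, limma adjusted p = 0.578). Of 16 replication-dependent histone genes 3 were below 0, each with few counts, among them Hist1h3b (-0.69 ± 0.16, limma adjusted p = 0.334). Of 15 immediate early genes 2 were above 0, Egr3 (1.24 ± 0.49, limma adjusted p = 0.687) and Nr4a1 on chromosome 15 (0.58 ± 0.24, limma adjusted p = 0.695). Relative to that chromosome Nr4a1 differed by 0.411 ± 0.235 and did not reach the unadjusted threshold (limma unadjusted p = 0.0927, adjusted p = 0.773). In the list of TGF-beta and mesenchymal genes the transcription factor gene Twist1 stood at 0.57 ± 0.17 (limma adjusted p = 0.513), with 0.55 in Balb/c and -0.02 in NSG hosts. Without tumour 4 the immediate early count above 0 was 4, and without tumour 20-24 it was 1 with 1 below. Of 31 DNA and histone methylation genes 0 were above 0 and 1 below, and up to 3 above or 3 below with single tumours left out. Hypoxia and glycolysis genes had 0 of 26 in either direction and a list median of -0.21, and both depended on the high-diet Balb/c tumours. Without tumour 20-24 there were 12 below 0 with a median of -0.52, and without tumour 19-23 there were 2 above with a median of 0.00. Fibroblast and matrix genes had a median of -0.46 over 18 genes with 0 in either direction. Without tumour 19-23 the median was 0.03, and without tumour 21 it was -0.71 with 3 genes below 0.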

How the data were processed

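RNA of CT26.WT grafts was sequenced in 24 libraries. The submitters' processing notes name the aligner STAR, featureCounts, DESeq2 and the build mm10. Tool versions and gene annotation: not given in the sources used here. A table of log2 values per gene was deposited by the authors, and its floor of 4.0711 and its steps have the form of a variance-stabilised scale, a reading that comes from the values. Inverted, 100% of values were whole counts within 0.01, and a normalised count below is a recovered count divided by its library's size factor. Differences are on the deposited log2 scale, which understates changes of genes with few counts. Of 55228 lines, 26 with date names were left out, and 38019 genes had a count.

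Libraries 19 and 23, and 20 and 24, were averaged as 1 tumour each. A means model of the 4 groups was fitted with limma 3.58.1 (trend and robust) in R 4.3.3, with Benjamini-Hochberg adjustment over 38019 genes, and tested on simulated data. Named genes were, among protein-coding genes whose mean value was 7 or more, the 12 with the lowest p and the 4 with the largest difference at p under 0.01 in each direction. Up to 3 members of each list at p under 0.05 and the panel Slc22a23, Ttc33, Trib3, Asns and Mat2a were added. Genes, lists and tests were chosen with earlier results of these data known. Alternatives were other filters, scalings and weights, voom, all 24 libraries and leaving out each tumour.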

Additional observations from a re-analysis of the deposited data

Results flagged for a closer look

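Of 224 groups of 4 or 6 tumours checked, 20 held a tumour far from the others of its group, and chance flags about 1 in 20 groups. In restricted Balb/c tumours, tumour 17 had 637 normalised counts of Sh2d6 against 55.6 to 76.9 in the others, 15058 of Mat2a against 7830 to 9980, and a chromosome 6 median of 0.38 against -0.04 to 0.07. Tumour 15 had 343 counts of Igf2bp1 against 121 to 182. In high-diet Balb/c tumours, tumour 19-23 had 858 counts of Ednrb against 392 to 424 and 24963 summed endothelial counts against 11660 to 12439. In that group tumour 20-24 had 709 counts of Psmg1 against 831 to 846, 12400 of Mat2a against 6966 to 7273 and 44590 of Npm1 against 51787 to 52924. Tumour 21 had 3949 counts of Cpt1a against 4472 to 4543.

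In restricted NSG tumours, tumour 2 had 3381 counts of Pcdh18 against 1744 to 2122, 1223 of Psmg1 against 707 to 857 and 90454 summed macrophage counts against 41025 to 53478. Tumour 3 had 394 counts of Igf2bp1 against 565 to 661, tumour 1 had 408 of Hsd17b7 against 266 to 311, and tumour 5 a chromosome 4 median of -0.041 against -0.01 to 0.00. In high-diet NSG tumours, tumour 12 had 95266 summed macrophage counts against 49694 to 58183 and a chromosome 14 median of 0.18 against -0.03 to 0.02. Tumour 9 had 6903 summed MHC class II counts against 1735 to 3378, and tumour 8 had 6830 summed dendritic counts against 8133 to 8804.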

How the results depend on the processing

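Each of the 104 named genes kept the sign of its difference under every setting in which it was tested, 33 to 35 settings each since the filters left out some genes. Most of them were named for a low p of this difference in these same tumours, so kept signs were largely set by that choice. The cause of the moved counts was not tested. For the diet by host difference, 1 gene was called with either filter on low values, with array weights and with limma without trend and robust, in each case Ttc33, and 2 with 24 libraries, Ttc33 and Slc22a23. Leaving out single tumours gave 0 to 3 genes. The unadjusted count was 1446 with the filter at a value of 7, 5009 with voom and 2129 to 3268 without single tumours, and opposite complete separation held for 1 to 4 genes. In Balb/c hosts 0 genes were called with either filter, voom, either library of each pair alone or the pairs as a random block, 2 with quantile normalisation, 3 with chromosome centring, 4 with array weights and 112 with 24 libraries. In these hosts 1 was called, as in the main fit, with log2(normalised count + 10), median centring or limma without trend and robust. Leaving out single tumours gave 1 to 122, the 122 without tumour 18. In NSG hosts 0 were called with the filter at 7, chromosome centring, quantile normalisation, the second libraries or the random block. There was 1 with the filter at 5, log2(normalised count + 10), voom or 24 libraries. As in the main fit there were 2 with median centring, the first libraries, array weights or limma without trend and robust. Leaving out single tumours gave 0 to 2 in these hosts. Chromosome centring, the random block and list counts under other settings or without single tumours were chosen after seeing the data. No paired analysis was possible because the library numbers are unique and the groups share none.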
